A study of Mus musculus with 6 samples.

Results

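The constitutive androstane receptor (CAR, gene Nr1i3) and a group of liver genes tied to it were followed in 6 mouse liver RNA libraries. The group has 10 genes, chosen by symbol from the 56674 rows of the count table: Nr1i3, the cytochrome P450 genes Cyp2b9, Cyp2b10, Cyp2b13, Cyp2a4, Cyp2a5, Cyp2a12 and Cyp2a22, the microsomal epoxide hydrolase Ephx1 and the P450 reductase Por. All 10 had enough reads to be among the 17871 genes tested. The livers were from male C57BL/6 mice, an inbred strain, reared for 71 weeks. In 3 libraries the mice had been fed chow with PB-MP, a microplastic of black polypropylene, and in the 3 control libraries normal chow. The comparison addressed whether long dietary exposure to this plastic alters liver gene expression. Whether each library is a mouse of its own is not stated in the labels, so p-values measure the spread between these libraries, which may be technical.

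CAR is a nuclear receptor that is held in the hepatocyte cytoplasm and moves to the nucleus when drugs such as phenobarbital or other foreign compounds activate it. There it pairs with a retinoid X receptor and switches on genes that oxidise, conjugate and export such compounds. Cyp2b10 is its classical target in mouse liver. Cyp2b9, Cyp2b13 and Cyp2a4 are known in mice as P450 genes of the female liver, while Cyp2a5 encodes the mouse coumarin hydroxylase, which also oxidises nicotine. Microsomal P450 enzymes draw electrons from the reductase that Por encodes, and Ephx1 hydrolyses the reactive epoxides that P450 enzymes can form.

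Several of these P450 genes are close copies of one another. Reads come from the transcripts, whose shared windows are given further below, and not from the upstream bases shown here. The 250 bases before the start of 5 of these P450 genes are shown because they hold the copies side by side, all from RefSeq on the assembly GRCm38.p6, plus strand. All 10 genes were found in that promoter table, with 1 entry each. In the first pair, Cyp2a4 at chr7:26306942-26307191 and Cyp2a5 at chr7:26835089-26835338, capitals mark the bases at which the partners differ.
Cyp2a4: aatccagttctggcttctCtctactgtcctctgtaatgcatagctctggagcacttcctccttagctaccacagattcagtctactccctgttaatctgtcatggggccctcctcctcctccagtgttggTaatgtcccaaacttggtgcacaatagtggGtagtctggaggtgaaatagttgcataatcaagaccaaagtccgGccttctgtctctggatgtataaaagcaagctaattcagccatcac
Cyp2a5: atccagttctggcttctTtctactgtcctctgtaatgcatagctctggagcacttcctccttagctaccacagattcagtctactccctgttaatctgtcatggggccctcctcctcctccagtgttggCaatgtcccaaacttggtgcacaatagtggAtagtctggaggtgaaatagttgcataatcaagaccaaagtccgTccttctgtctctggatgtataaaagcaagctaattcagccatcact
Over the 249 aligned positions 4 differed, an identity of 98.4%. In the second pair, Cyp2b9 at chr7:26173159-26173408 and Cyp2b13 at chr7:26061245-26061494, capitals again mark the differences. Cyp2b10, at chr7:25897408-25897657, follows with its differences from Cyp2b9 within the aligned stretch in capitals. The first Cyp2b10 bases lie outside that stretch and stay in lower case, and Cyp2b9 bases absent from Cyp2b10 carry no mark.
Cyp2b9: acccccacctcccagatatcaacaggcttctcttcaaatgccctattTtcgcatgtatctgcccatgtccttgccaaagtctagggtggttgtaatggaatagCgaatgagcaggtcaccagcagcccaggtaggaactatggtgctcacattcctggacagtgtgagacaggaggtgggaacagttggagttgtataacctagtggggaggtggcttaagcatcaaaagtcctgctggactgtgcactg
Cyp2b13: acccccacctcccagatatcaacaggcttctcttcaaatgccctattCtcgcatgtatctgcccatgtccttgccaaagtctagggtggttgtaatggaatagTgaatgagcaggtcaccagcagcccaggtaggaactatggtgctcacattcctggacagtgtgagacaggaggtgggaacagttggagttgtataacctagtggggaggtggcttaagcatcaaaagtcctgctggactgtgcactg
Cyp2b10: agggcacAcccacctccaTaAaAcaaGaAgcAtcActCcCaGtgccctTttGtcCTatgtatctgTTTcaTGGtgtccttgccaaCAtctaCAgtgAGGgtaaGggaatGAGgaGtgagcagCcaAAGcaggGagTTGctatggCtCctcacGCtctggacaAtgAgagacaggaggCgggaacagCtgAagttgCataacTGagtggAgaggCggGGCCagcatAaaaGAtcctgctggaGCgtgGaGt
Cyp2b9 and Cyp2b13 differed at 2 of 250 positions (identity 99.2%). Cyp2b10 was identical to Cyp2b9 at 179 of 254 aligned positions (70.5%, with 14 gap positions). Cyp2a12 and Cyp2a22, not printed, were identical at 212 of 239 aligned positions (88.7%).

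Letters known from liver promoters were searched on both strands of these 250 bases in all 10 genes and in 32851 promoters of the table. The nuclear receptor half-site AGGTCA was present before Cyp2b9 and Cyp2b13, 2 of 10 genes, against 14.0% of all promoters, and AGTTCA before 0 of 10, against 11.8%. A direct repeat of either half-site with 4 bases between, a form that CAR can bind, was before 0 of 10 genes, against 0.0152% of all promoters for AGGTCA and 0.0091% for AGTTCA. The response element through which CAR is known to act on Cyp2b10 lies further upstream than this window. The C/EBP-type element TTGCNNAA was before 5 of 10 genes, the 3 Cyp2b genes, Cyp2a4 and Cyp2a5, against 9.56% of all promoters. The TATA box TATAAA was before Cyp2a4, Cyp2a5, Cyp2a12, Cyp2a22 and Ephx1, against 12.4% of all promoters. These matches describe letters only, and matches in close copies, such as Cyp2b9 with Cyp2b13 and Cyp2a4 with Cyp2a5, are not independent of each other.

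The library totals ran from 70603124 to 90483598 counted reads in PB-MP and from 68357478 to 112566641 in control. Values below are CPM, reads scaled to a fixed library total and then scaled by the trimmed mean of M-values (TMM), unless a share is named. Fold changes are PB-MP over control on the log2 scale with their SE. A count of 3 reads corresponds to at most 0.0495 CPM, a limit that covers counting error only, so every one of the 10 genes was detected in every library. Over all 17871 genes, edgeR's quasi-likelihood test called 0 (0%) at a Benjamini-Hochberg adjusted p below 0.05, and 2161 (12.1%) had an unadjusted p below 0.05. Scaling by library size alone raised the median log2 fold change of all genes to 0.23 from 0.01, so each value here is relative to the TMM scaling. The 6 hepatocyte markers, Alb among them, summed to 62269 to 72242 CPM in PB-MP and 58199 to 69906 CPM in control.

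None of the 10 genes passed the test between diets. At an adjusted p below 0.05, 0 of 10 were called in edgeR and in limma-voom, and 0 of the 9 that had an adjusted p in DESeq2, which called 2.44% of its genes. In edgeR 2 of 10, Cyp2b10 and Ephx1, had an unadjusted edgeR p below 0.05, both with estimates lower in PB-MP, against 4.74% of all genes lower at that p. Estimates were above 0 for 5 genes and below 0 for 5, with a median log2 fold change of -0.27 against 0.01 for all genes tested. Leaving out PB-MP replicate 1 put that median at -0.43, and leaving out control replicate 1, 2 or 3 at -0.46, -0.42 or -0.08 in that order. With library size only the median of the 10 genes was -0.05, against 0.23 for all genes. The PB-MP and control libraries did not overlap for 2 of 10 genes, Ephx1 and Cyp2a22, both lower in PB-MP, against 19.8% of all genes in either direction and 8.49% of all genes lower in PB-MP. Only Cyp2a12, 1 of 10, had a 95% interval wholly between -1 and 1 (log2), against 45.7% of all genes, so for the other 9 the interval held a 2-fold difference. RNA of whole liver cannot tell fewer cells of a type from less RNA per cell.

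**Figure D1:**
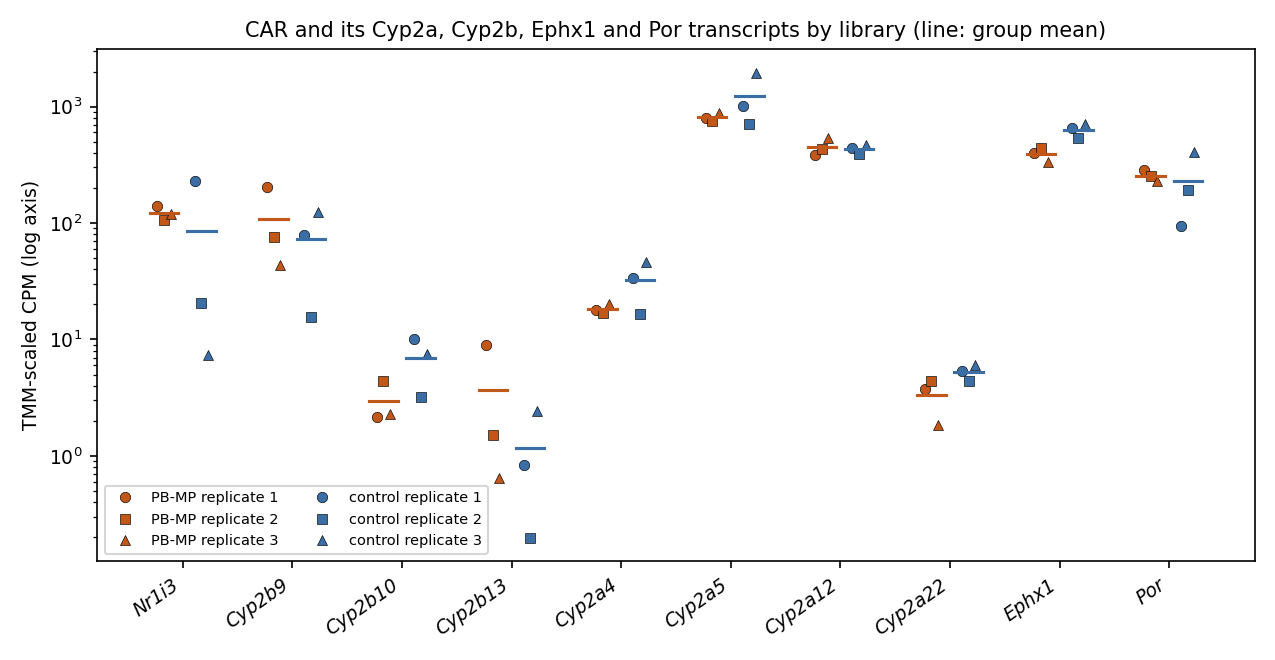
TMM-scaled CPM on a log axis for each of the 10 genes, with the 3 PB-MP libraries left of the 3 control libraries, symbols for replicates and a line at the group mean. Nr1i3 in control runs from 7.35 to 229 CPM, while its PB-MP libraries lie between 106 and 141 CPM, and the Ephx1 groups do not overlap.

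The receptor itself was the most uneven of the 10 genes. Nr1i3 had 141, 106 and 119 CPM in PB-MP replicates 1, 2 and 3, against 229, 20.6 and 7.35 CPM in control replicates 1, 2 and 3. Control replicate 1 thus held the highest level of all 6 libraries, and control replicates 2 and 3 the lowest, so the PB-MP libraries sat between the controls. In reads, these were 11132, 9003 and 11643 in PB-MP and 16698, 1246 and 773 in control. The means were 122 ± 17.5 CPM in PB-MP and 85.7 ± 124 CPM in control (SD, n = 3 each), and the log2 fold change was 0.51 ± 1.08 with a 95% interval of -2.02 to 3.05 (edgeR adjusted p = 0.878). DESeq2 gave no adjusted p for Nr1i3.

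The Nr1i3 range within control was 31.2-fold, against 1.33-fold within PB-MP. Of 12546 tested genes whose mean reached 1 CPM, 101 had a wider range within control, and the median range was 1.40-fold in control and 1.45-fold in PB-MP. The estimate depended on which controls were included. Without control replicate 1 the log2 fold change of Nr1i3 was 3.14 ± 0.46 (edgeR adjusted p = 0.310, unadjusted p = 0.000408), and without control replicate 3 it was -0.06 ± 0.84 (adjusted p = 0.994). Without control replicate 2 it was 0.02 ± 1.12.

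Nr1i3 overlaps Tomm40l, a gene on the opposite strand named for its likeness to an outer mitochondrial membrane import subunit, and the sources used here do not give the strand setting of the counting. Of the 50-base windows of the principal Nr1i3 transcript, 47.8% also occur, on the other strand, in a Tomm40l transcript, and 26.8% of 100-base windows do. Tomm40l had 40.3, 27.5 and 25.9 CPM in PB-MP replicates 1, 2 and 3 and 19.98, 8.89 and 3.53 CPM in control replicates 1, 2 and 3. Its controls too were highest in replicate 1 and lowest in replicate 3, but all 3 lay below the PB-MP libraries (log2 fold change 1.53 ± 0.57, edgeR adjusted p = 0.367). There were 3.50, 3.87 and 4.62 Nr1i3 reads per Tomm40l read in PB-MP replicates 1, 2 and 3, against 11.5, 2.31 and 2.08 in control replicates 1, 2 and 3. The sum of both genes was 181, 134 and 145 CPM in PB-MP and 249, 29.5 and 10.9 CPM in control, in the same order as Nr1i3 alone. Without strand, reads of the overlapping parts cannot be assigned to one of these genes.

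The 3 genes whose levels over the 6 libraries were nearest to the Nr1i3 pattern were Mylk, Zfp568 and Med12, out of 11345 named genes whose mean reached 1 CPM. The measure was the root mean square difference of log2 CPM after each gene was centred on its own mean, which was 0.582, 0.604 and 0.624. Mylk, which encodes myosin light chain kinase, had 4.96, 2.65 and 4.16 CPM in PB-MP and 6.56, 1.07 and 0.590 CPM in control. Med12, a subunit of the Mediator complex of transcription, had 5.08, 12.8 and 8.35 CPM in PB-MP and 14.2, 1.24 and 0.219 CPM in control. Zfp568, a zinc finger gene, had 1.90, 0.875 and 2.503 CPM in PB-MP and 4.42, 0.611 and 0.152 CPM in control. In each of the 3 genes, as in Nr1i3, control replicate 1 was the highest library and control replicates 2 and 3 were the lowest.

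**Figure D2:**
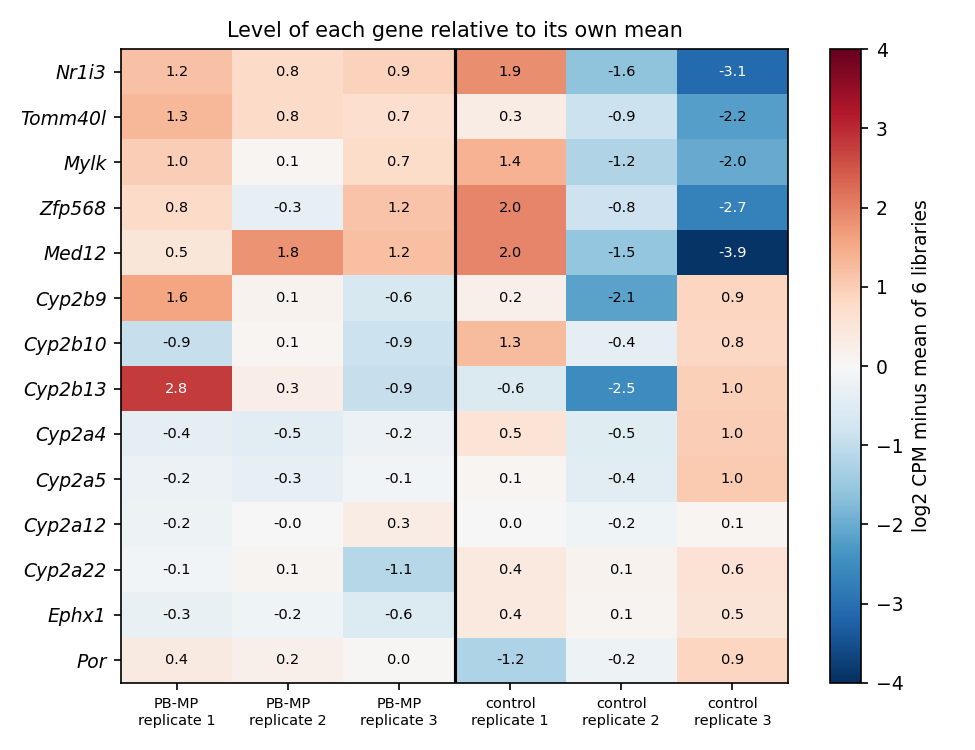
Log2 CPM minus each gene's mean over the 6 libraries, with PB-MP libraries left of the line and control libraries right of it, for Nr1i3, the overlapping Tomm40l, the 3 genes nearest to the Nr1i3 pattern, and the other 9 genes. Control replicate 3 is lowest for Nr1i3 at -3.09 and highest for Cyp2a5 at 1.04.

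The Cyp2b genes, which hold the best known target of CAR in rodent liver, were low to moderate in level. Their estimates went in different directions with all libraries. Without PB-MP replicate 1 all of them were below 0, with Cyp2b10 at -1.06. Cyp2b10 had 2.18, 4.39 and 2.30 CPM in PB-MP replicates 1, 2 and 3, against 10.2, 3.20 and 7.54 CPM in control replicates 1, 2 and 3. PB-MP replicates 1 and 3 were the lowest libraries, while PB-MP replicate 2 lay above control replicate 2, so the groups overlapped. The means were 2.95 ± 1.24 CPM in PB-MP and 6.97 ± 3.52 CPM in control (SD, n = 3 each), a log2 fold change of -1.24 ± 0.48 with a 95% interval of -2.36 to -0.12 (edgeR adjusted p = 0.376, DESeq2 adjusted p = 0.161). The adjusted p of Cyp2b10 over all alternatives ran from 0.131 to 0.825, the highest for reads summed with its paralogs.

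Cyp2b9 was the most abundant of the 3. Its PB-MP replicates 1, 2 and 3 held 206, 75.8 and 43.8 CPM, against 78.7, 15.6 and 124 CPM in control replicates 1, 2 and 3. PB-MP replicate 1 was highest and control replicate 2 lowest, while control replicates 1 and 3 both lay above PB-MP replicates 2 and 3. The log2 fold change was 0.58 ± 0.79 (95% interval -1.28 to 2.44, edgeR adjusted p = 0.804). Cyp2b13 had 8.91, 1.501 and 0.646 CPM in PB-MP and 0.837, 0.198 and 2.44 CPM in control, again highest in PB-MP replicate 1 and lowest in control replicate 2. Its log2 fold change was 1.65 ± 1.13 (95% interval -1.01 to 4.31, adjusted p = 0.597). Without PB-MP replicate 1 the estimates were -0.28 ± 0.77 for Cyp2b9 and -0.13 ± 0.95 for Cyp2b13.

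Cyp2b10 made up 1.01%, 5.37% and 4.92% of the reads of the 3 Cyp2b genes in PB-MP replicates 1, 2 and 3, against 11.3%, 16.8% and 5.64% in control replicates 1, 2 and 3. The share of Cyp2b10 was below that of every control in every PB-MP library (two-sided exact permutation p = 0.1, which is as small as 3 against 3 libraries allow). It was 1 of 10 values per library compared in this way, and the adjusted exact p over these 10 was 0.25 for each of the 4 at the smallest p and higher for the rest. Cyp2b13 made up 4.15%, 1.94% and 1.45% of the reads of Cyp2b9 and Cyp2b13 in PB-MP and 1.05%, 1.25% and 1.94% in control (exact permutation p = 0.2). Of the 50-base windows of Cyp2b13, 13.8% also occur in the gene Gm45225, 10.8% in Cyp2b9 and 7.996% in Cyp2b10. Of these windows 27.3% occur in any other gene, against 11.2% for Cyp2b9 and 9.69% for Cyp2b10. The reads of all 3 genes summed gave 217, 81.7 and 46.7 CPM in PB-MP and 89.7, 19.0 and 134 CPM in control, a log2 fold change of 0.51 ± 0.76 (adjusted p = 0.825), which is the pattern of Cyp2b9.

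The Cyp2a genes include the most abundant P450 of the group. Cyp2a5 had 804, 754 and 884 CPM in PB-MP replicates 1, 2 and 3, against 1019, 711 and 1960.4 CPM in control replicates 1, 2 and 3. The PB-MP libraries were close together and lay between control replicate 2 and the other controls. The means were 814 ± 65.5 CPM in PB-MP and 1230.1 ± 651 CPM in control (SD, n = 3 each), a log2 fold change of -0.60 ± 0.36 with a 95% interval of -1.45 to 0.26 (edgeR adjusted p = 0.550). Control replicate 3 carried most of that difference: without it the log2 fold change of Cyp2a5 was -0.10 ± 0.26 (adjusted p = 0.956), and without control replicate 2 it was -0.90 ± 0.30 (adjusted p = 0.224).

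Cyp2a4, a steroid hydroxylase nearly identical to Cyp2a5, had 17.9, 16.9975 and 19.99 CPM in PB-MP replicates 1, 2 and 3, against 34.0, 16.6 and 46.2 CPM in control replicates 1, 2 and 3. All 6 libraries stood in the same order for Cyp2a4 and Cyp2a5, from control replicate 3 at the top to control replicate 2 at the bottom. The log2 fold change of Cyp2a4 was -0.82 ± 0.35 with a 95% interval of -1.64 to 0.01 (edgeR adjusted p = 0.417, unadjusted p = 0.0512). Without control replicate 3 the estimate for Cyp2a4 was -0.48 ± 0.34 (adjusted p = 0.780), and without control replicate 2 it was -1.16 ± 0.20 (adjusted p = 0.129).

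Cyp2a4 made up 2.18%, 2.20% and 2.21% of the reads of the pair in PB-MP replicates 1, 2 and 3, against 3.23%, 2.29% and 2.30% in control replicates 1, 2 and 3. The share of Cyp2a4 was thus within 2.18% to 2.30% in 5 libraries and higher in control replicate 1, and every PB-MP library was below every control (two-sided exact permutation p = 0.1). Of the 50-base windows of Cyp2a4, 36.1% also occur in Cyp2a5, and 11.2% of its 100-base windows do. A count for Cyp2a4 that is about 2% of its neighbour's is therefore uncertain, since the sources used here do not say how reads that match both were counted. The summed reads of the pair gave a log2 fold change of -0.60 ± 0.36 (adjusted p = 0.545), close to that of Cyp2a5. The pseudogene Cyp2a21-ps, which shares 17.9% of the 50-base windows of Cyp2a5, had 22.0, 19.6 and 15.5 CPM in PB-MP and 34.5, 19.1 and 65.2 CPM in control, with control replicate 3 the highest here too.

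Cyp2a12, known in mice as a hydroxylase of bile acids and steroids, was the steadiest of the 10 genes. It had 384, 434 and 541 CPM in PB-MP replicates 1, 2 and 3, against 443, 392 and 467 CPM in control replicates 1, 2 and 3. The groups overlapped fully, with a log2 fold change of 0.06 ± 0.19 and a 95% interval of -0.38 to 0.50 (edgeR adjusted p = 0.919), and 14.0% of the 12546 genes had a smaller SD of log2 CPM over the 6 libraries.

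Cyp2a22, its nearest copy among the 4, was far lower. PB-MP replicates 1, 2 and 3 held 3.75, 4.37 and 1.83 CPM, against 5.32, 4.41 and 6.07 CPM in control replicates 1, 2 and 3. The groups were separated by a narrow margin between PB-MP replicate 2 and control replicate 2, and overlapped on unscaled CPM, on which 23.9% of all genes had groups apart. The log2 fold change was -0.67 ± 0.35 (95% interval -1.49 to 0.16, edgeR adjusted p = 0.486). Cyp2a22 made up 0.968%, 0.998% and 0.336% of the reads of Cyp2a12 and Cyp2a22 in PB-MP and 1.19%, 1.11% and 1.28% in control (exact permutation p = 0.1), and 25.7% of its 50-base windows also occur in Cyp2a12. PB-MP replicate 3, the lowest library of Cyp2a22, was the highest of Cyp2a12. Without PB-MP replicate 3 the estimate for Cyp2a22 was -0.38.

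**Figure D3:**
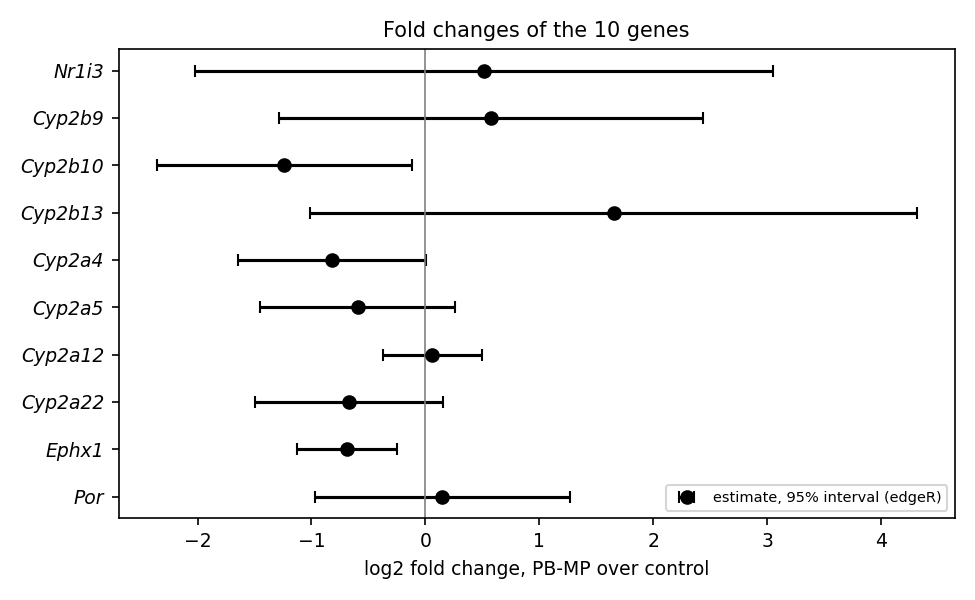
Log2 fold change of PB-MP over control for each gene, with the 95% interval of the edgeR fit over all 6 libraries. The interval of Ephx1 runs from -1.13 to -0.25 and that of Cyp2b10 from -2.36 to -0.12, and the other 8 include 0.

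Ephx1 differed most relative to its spread. It had 400, 439.7 and 335 CPM in PB-MP replicates 1, 2 and 3, against 654, 534 and 704 CPM in control replicates 1, 2 and 3. Every PB-MP library lay below every control, on unscaled CPM too. The means were 392 ± 53.0 CPM in PB-MP and 631 ± 87.2 CPM in control (SD, n = 3 each), a log2 fold change of -0.69 ± 0.19 with a 95% interval of -1.13 to -0.25 (edgeR adjusted p = 0.258, unadjusted p = 0.00780, DESeq2 adjusted p = 0.104). By unadjusted p it ranked 539 of 17871 genes. With each library left out in turn the estimate for Ephx1 stayed between -0.82 and -0.59, and its adjusted p over all alternatives ran from 0.0870 to 0.618. Other measures differed between the groups too, although the Kupffer and stellate cell sums given here overlapped. The neutrophil and the T or NK cell marker sums, given in the closing section, did not overlap. Mitochondrially encoded mRNAs took 8.73% to 10.1% of reads in PB-MP and 14.2% to 15.1% in control. The 6 Kupffer cell markers had estimates above 0 in 6 of 6 and summed to 102 to 226 CPM in PB-MP and 80.3 to 103 CPM in control. The 5 stellate cell markers had estimates below 0 in 4 of 5 and summed to 154 to 264 CPM in PB-MP and 262 to 283 CPM in control. The part of these differences in the Ephx1 result was not tested.

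Por, which encodes an electron donor of microsomal P450 enzymes, had 283, 254 and 228 CPM in PB-MP replicates 1, 2 and 3, against 93.5, 190.5 and 406 CPM in control replicates 1, 2 and 3. The PB-MP libraries lay between control replicates 2 and 3, and control replicate 1 was the lowest of all. The means were 255 ± 27.7 CPM in PB-MP and 230.0 ± 160.0 CPM in control (SD, n = 3 each), a log2 fold change of 0.15 ± 0.47 with a 95% interval of -0.97 to 1.27 (edgeR adjusted p = 0.924). Reads of Por per read of the 7 P450 genes summed were 0.198, 0.197 and 0.152 in PB-MP, against 0.0588, 0.167 and 0.155 in control (exact permutation p = 0.3). The ratio of Ephx1 to Por reads was 1.41, 1.73 and 1.47 in PB-MP and 6.99, 2.80 and 1.73 in control (exact permutation p = 0.1), with PB-MP replicate 2 and control replicate 3 nearly equal.

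Control libraries were further apart than PB-MP libraries for 7 of the 10 genes, measured as the highest over the lowest CPM in a group, against 48.4% of the 12546 genes. For Por the range was 1.24-fold in PB-MP and 4.34-fold in control, for Cyp2a5 1.17-fold and 2.76-fold in the same order, and for Cyp2a4 1.18-fold in PB-MP and 2.78-fold in control. Ephx1, counted among the 7, was nearly equal at 1.313-fold in PB-MP and 1.318-fold in control. Cyp2a12, Cyp2a22 and Cyp2b13 went the other way, the last at 13.8-fold in PB-MP and 12.3-fold in control. The controls did not vary as a block. Control replicate 3 was the lowest of all 6 libraries for Nr1i3 and the highest for Cyp2a4, Cyp2a5, Cyp2a22, Ephx1 and Por. Control replicate 1 was the highest for Nr1i3 and Cyp2b10 and the lowest for Por. This was seen in the values and was not tested.

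**Figure D4:**
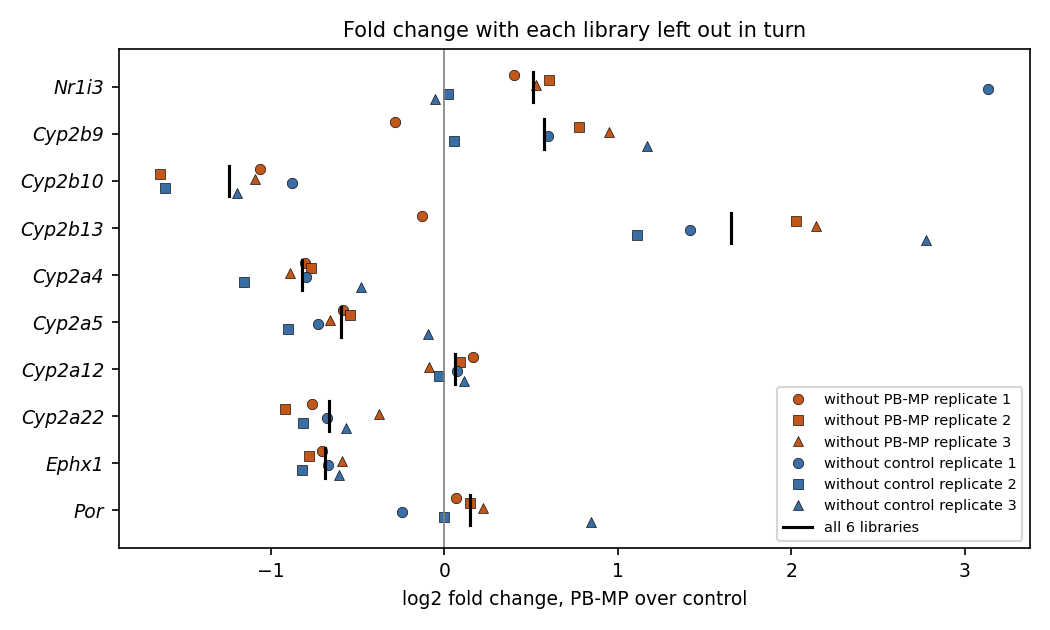
Log2 fold change of PB-MP over control for each gene with all 6 libraries (black line) and with 1 library left out in turn (PB-MP replicates in orange, control replicates in blue). Nr1i3 moves to 3.14 without control replicate 1, while Ephx1 stays between -0.82 and -0.59.

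Between genes, levels can be compared only per length, here as CPM per kilobase of the principal transcript, and by this measure the 10 genes spanned a wide range. Means over the 3 PB-MP and the 3 control libraries were 404 and 611 CPM per kilobase for Cyp2a5, 225 and 362 for Ephx1, 269 and 258 for Cyp2a12, and 96.7 and 87.3 for Por. They were 86.5 and 60.6 for Nr1i3, 57.8 and 38.7 for Cyp2b9, and 10.5 and 18.6 for Cyp2a4. The lowest were Cyp2b10 at 1.54 in PB-MP and 3.64 in control, Cyp2a22 at 1.85 in PB-MP and 2.93 in control, and Cyp2b13 at 1.97 in PB-MP and 0.618 in control. In this order of mean levels over all 6 libraries, neighbours overlapped in range except between Cyp2a12 and Por and between Cyp2a4 and Cyp2b10.

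The other listed targets of CAR were the next group read beside the members. Of 29 genes, all tested, 0 passed over all genes in edgeR. At an unadjusted p below 0.05, 1 was higher and 6 were lower in PB-MP, against 7.35% and 4.74% of all genes. Estimates were below 0 for 22 of 29, against 49.4% of all genes, with a median log2 fold change of -0.26, and the groups did not overlap for 9 of 29, 8 of them lower in PB-MP, against 19.8% of all genes in either direction and 8.49% lower. The median was -0.43 without PB-MP replicate 1, -0.14 without PB-MP replicate 2 and -0.06 with library size only, where that of all genes was 0.23. The list was chosen with earlier results of these data known. Gstm1, a glutathione S-transferase of the mu class, had 1095, 1050.2 and 1005 CPM in PB-MP replicates 1, 2 and 3 and 2668, 1780.3 and 2663 CPM in control replicates 1, 2 and 3. All controls lay well above all PB-MP libraries (log2 fold change -1.17 ± 0.22, edgeR adjusted p = 0.207, DESeq2 adjusted p = 0.000772). Its relative Gstm3 was at -1.27 ± 0.33 (edgeR adjusted p = 0.250, DESeq2 adjusted p = 0.0260), and Cyp2c29, a P450 inducible through CAR in mice, at -0.63 ± 0.18 (edgeR adjusted p = 0.284). DESeq2 called 3 of the 29, Gstm1, Gstm3 and Abcc4, against 2.44% of its genes. Abcc4, an export pump chosen after its value was seen, was at -1.44 ± 0.44 (DESeq2 adjusted p = 0.0497). Mdm2, the ubiquitin ligase of p53 and the single listed target whose libraries were all higher in PB-MP, was at 0.43 ± 0.16 and is likewise named after its value was seen. With PB-MP replicate 3 and control replicate 2 left out the groups did not overlap for 18 of 29, against 58.9% of all genes with these 4 libraries, an alternative chosen after seeing the data.

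**Figure D5:**
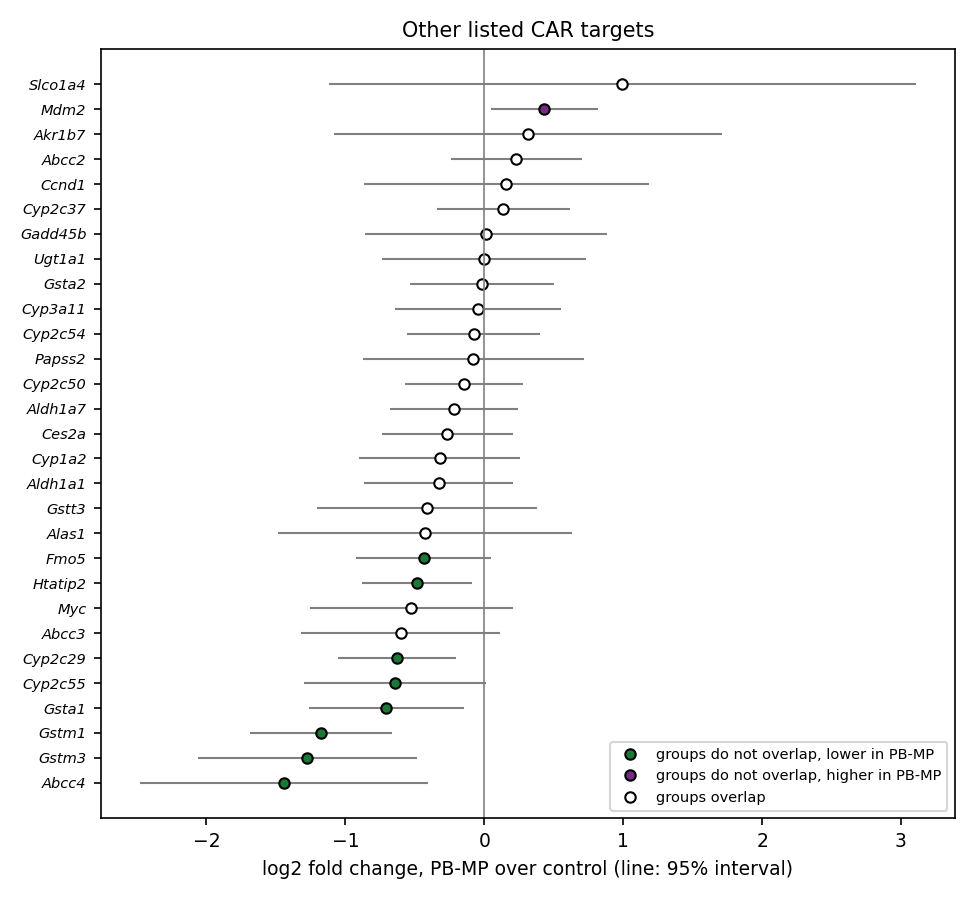
Log2 fold changes of PB-MP over control with 95% intervals for the 29 other listed CAR targets, ordered by estimate. Of the 29 estimates 22 lie below 0, and the filled points mark the 9 genes whose groups do not overlap.

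Partners and regulators of CAR were measured with the same test. Of 25 genes tested, 0 passed adjustment in edgeR, 1 was higher and 4 were lower at an unadjusted p below 0.05, against 7.35% and 4.74% of all genes. The groups did not overlap for 9 of 25, 8 of them lower in PB-MP, against 19.8% of all genes in either direction and 8.49% lower. The median log2 fold change was -0.21, and it was 0.01 with library size alone as the scaling, where that of all genes was 0.23. Ncoa6, a coactivator of nuclear receptors, had 2.70, 2.34 and 1.33 CPM in PB-MP and 13.8, 8.71 and 7.11 CPM in control (log2 fold change -2.22 ± 0.37, edgeR adjusted p = 0.207). DESeq2 called Ncoa6 alone of the 25, against 2.44% of its genes. Dnajc7, the co-chaperone that holds CAR in the cytoplasm, had 47.7, 52.2 and 51.5 CPM in PB-MP and 36.1, 42.5 and 34.4 CPM in control (log2 fold change 0.42 ± 0.15, adjusted p = 0.346). Rxra, the retinoid X receptor with which CAR pairs, is named after its values were seen. It had 41.0, 195 and 179 CPM in PB-MP replicates 1, 2 and 3, against 415, 241 and 384 CPM in control replicates 1, 2 and 3. The groups did not overlap, PB-MP replicate 1 stood far below the others, and the log2 fold change was -1.33 ± 0.55 (adjusted p = 0.404).

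The genes that carry electrons or bind haem beside Por were tested as a list of 5. In edgeR 0 passed, and 1 was lower at an unadjusted p below 0.05, against 4.74% of all genes. Estimates were below 0 for 4 of 5, against 49.4% of all genes. The median log2 fold change was -0.31, and -0.09 with library size only, where that of all genes was 0.23. Cyb5r3, the cytochrome b5 reductase, was at -0.60 ± 0.24 (adjusted p = 0.394), Cyb5b, a mitochondrial cytochrome b5, at -0.37 ± 0.18, and Pgrmc1, a haem-binding membrane protein that interacts with P450 enzymes, at -0.31 ± 0.18. Of the other 6 genes listed from the Cyp2 cluster, 3 were tested and 0 passed at either p, against 12.1% of all genes at the unadjusted p. Cyp2f2, known in mice for the oxidation of naphthalene, was at -0.20 ± 0.21 with 604 ± 134 CPM in PB-MP and 694 ± 70.6 CPM in control, Cyp2g1 at -0.07 ± 0.44, and Cyp2b19 and Cyp2b23 had 0 reads in every library. Of the other 3 epoxide hydrolases only Ephx2, the soluble enzyme, was tested, at 0.01 ± 0.18 (95% interval -0.42 to 0.43, adjusted p = 0.993), where that of Ephx1 was -0.69 ± 0.19; the difference between both was not tested.

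Since Cyp2b9, Cyp2b13 and Cyp2a4 are female-biased in mice, other sex-biased liver genes are given beside them. Of 19 listed female-biased genes 17 were tested, 0 passed in edgeR, 2 were higher and 1 was lower at an unadjusted p below 0.05, against 7.35% and 4.74% of all genes. Of the 17 estimates 11 were above 0 and 6 below, where 49.4% of all genes were below 0, and the median log2 fold change was 0.44, but 0.15 without PB-MP replicate 1. Cux2, a transcription factor of the female liver, had 0.951, 3.75 and 0.872 CPM in PB-MP and 0.192, 0.215 and 0.295 CPM in control (log2 fold change 2.97 ± 0.66, edgeR adjusted p = 0.219, DESeq2 adjusted p = 0.000698). Acot3, a peroxisomal thioesterase, was at 0.49 ± 0.22, and Cyp3a16 at -0.54 ± 0.24. Of 18 male-biased genes, all tested, 0 passed in edgeR, 0 were higher and 6 were lower at an unadjusted p below 0.05, against 7.35% and 4.74% of all genes. Estimates were below 0 for 13 of 18, against 49.4% of all genes, with a median of -0.42. With library size only this median was -0.21, where that of all genes was 0.23. Cyp4a12a was at -1.68 ± 0.27 and Cyp4a12b at -1.87 ± 0.32 (edgeR adjusted p = 0.207 for each), both fatty acid hydroxylases of the male liver with near-identical sequences, and Selenbp2, a selenium-binding protein, was at -0.66 ± 0.16. DESeq2 called 3 of the 18, against 2.44% of its genes. With all libraries the 3 female-biased members did not share a direction, at 0.58, 1.65 and -0.82 for Cyp2b9, Cyp2b13 and Cyp2a4. Leaving out PB-MP replicate 1 put all of them below 0, at -0.28, -0.13 and -0.80 in the same order.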

How the data were processed

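Poly(A)-selected liver RNA was sequenced from directional libraries, per the labels' protocols. The submitters' processing notes name bcl2fastq and GRCm39 without their roles. Aligner, counter, annotation and strand setting: not given in the sources used here. Per gene symbol, the authors deposited raw counts, once per library and once as a joint table, and the 6 columns of the joint table matched the single files. For 939 rows that share a name, the row with most reads kept it.

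Genes were filtered with filterByExpr of edgeR 4.0.16 (minimum count 10, total 15) in R 4.3.3, scaled by TMM and tested by the quasi-likelihood F test, with Benjamini-Hochberg adjustment over all genes, and the method was tested on simulated data. The SE is the log2 fold change divided by the square root of F. Log2 CPM used a prior count of 2. For ratios and shares of reads an exact permutation test over all 10 ways to divide 6 libraries into 3 and 3 was used. Alternatives were DESeq2 1.42.0, limma-voom (limma 3.58.1), other scalings and filters, a replicate block and libraries left out. Transcript lengths, overlaps and shared windows came from GENCODE M21 (GRCm38), used without coordinates.

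The members and gene lists were chosen with earlier results of these data known. Of each pathway list, up to 3 genes with the smallest p whose mean reached 1 CPM are named, and all 10 members. A gene that this rule selects is not reported here. Libraries of a group differed beyond sampling noise (chi-square per degree of freedom at least 181).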

Additional observations from a re-analysis of the deposited data

How the results depend on the processing

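No setting brought any of the 10 genes past an adjusted p of 0.05, and of 182 re-estimated log2 fold changes 172 kept their direction and 10 turned. Those that turned were Cyp2a12 with quality weights (-0.10) and with PB-MP replicate 3 and control replicate 2 both left out (-0.17), and Cyp2b10 with the reads of its paralogs summed (0.51), where the row holds mostly Cyp2b9 reads. With 1 library left out, estimates ran from -0.0889 to 0.17 for Cyp2a12 (-0.03 without control replicate 2), -0.28 to 1.17 for Cyp2b9, -0.13 to 2.78 for Cyp2b13, -0.24 to 0.85 for Por (-0.000376 without control replicate 2) and -0.0561 to 3.14 for Nr1i3. The number of the 10 genes at an unadjusted p below 0.05 was 2, but 0 with library size only, 1 to 4 with 1 library left out and 4 with that pair left out. In the main fit 12.1% of all genes were at that p, and this share was not counted for the alternatives. The groups did not overlap for 1 gene with library size only, against 23.9% of all genes on unscaled CPM. As alternatives added after seeing the data, they did not overlap for 6 without that pair and for 3 without control replicate 1. Fewer libraries make overlap rarer, and the shares of all genes were 58.9% and 27% in the same order. Over all genes, DESeq2 called 361 higher and 151 lower, edgeR 2 higher without that pair, and 0 to 1 higher with 1 library left out. Causes were not tested.

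For same-numbered libraries the deviations from the group means had correlations of -0.0869, 0.0935 and 0.0816 for numbers 1, 2 and 3. Libraries of unlike number ran from -0.137 to 0.0821. The 18S ribosomal RNA row Rn18s-rs5 took 3.61%, 9.42% and 0.707% of reads in PB-MP replicates 1, 2 and 3. In control replicates 1, 2 and 3 it took 2.92%, 11.2% and 1.15%, which is the same order. Whether same-numbered libraries share a batch was not tested. With the replicate number as a block, 1 of the 10 genes, Ephx1, had an unadjusted p below 0.05 and 0 passed after adjustment. Cyp2b13, at 63 reads in PB-MP replicate 3 and 12 in control replicate 2, is the gene most limited by depth.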

Other observations

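Genes that mark the position of hepatocytes in the lobule showed no call in either direction. Of 14 pericentral genes, the zone where many CAR targets are expressed, 0 passed in edgeR and 0 had an unadjusted p below 0.05, against 12.1% of all genes. Their median log2 fold change was -0.07, and 11 of 14 intervals lay within -1 to 1, against 45.7% of all genes. Lgr5, a Wnt pathway receptor, was at 0.41 ± 0.24, Glul, glutamine synthetase, at -0.39 ± 0.23 and Cyp1a2, a P450 of the aromatic hydrocarbon response, at -0.32 ± 0.25. The pericentral median depended on the libraries, at -0.28 without control replicate 2 and -0.21, -0.13 and 0.05 without PB-MP replicate 1, 2 and 3 in turn. With library size only the pericentral median was 0.15, where that of all genes was 0.23. Of 9 periportal genes 0 passed at either p, against 12.1% of all genes at the unadjusted p. Their median was 0.13, and 8 of 9 intervals lay within -1 to 1, against 45.7% of all genes. The periportal median was 0.23 without PB-MP replicate 1, -0.04 without PB-MP replicate 2, 0.09 without control replicate 2 and 0.02 with quality weights. With library size only the periportal median was 0.33, where that of all genes was 0.23. Hsd17b13, a lipid droplet enzyme, was at 0.47 ± 0.21, Gls2, the liver glutaminase, at 0.21 ± 0.18 and Cdh1, E-cadherin, at -0.66 ± 0.56.

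Summed marker levels of other cell types are given as ranges of CPM over the libraries. Adipocyte markers summed to 4.43 to 8.996 CPM in PB-MP and 6.60 to 17.1 in control, with Lep at 0 reads in every library. Neutrophil markers summed to 2.74 to 5.07 CPM in PB-MP and 1.12 to 1.56 in control, with Ly6g at 0 reads, and B or plasma cell markers to 28.7 to 65.7 CPM in PB-MP and 15.8 to 173 in control. Endothelial markers summed to 53.2 to 90.9 CPM in PB-MP and 68.2 to 82.9 in control, cholangiocyte markers to 18.1 to 28.4 CPM in PB-MP and 11.9 to 26.6 in control, T or NK cell markers to 2.18 to 2.51 CPM in PB-MP and 2.68 to 4.77 in control, and erythroid markers to 285 to 438 CPM in PB-MP and 185 to 327 in control. Of 4 exocrine pancreas markers, Cpa1, Ctrb1 and Pnlip had 0 reads in every library. The part of these levels in the results above was not tested.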
